A study of Mus musculus with 2 samples.

Results

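The D-type cyclins, their partner kinases CDK4 and CDK6, and the inhibitors of these kinases were compared in 2 lines of mouse melanoma cells, B16F1-GFP-D and B16F1-GFP-M. The 10 genes are *Ccnd1*, *Ccnd2*, *Ccnd3*, *Cdk4*, *Cdk6*, *Cdkn1a*, *Cdkn1b*, *Cdkn1c*, *Cdkn2a* and *Cdkn2c*. They were chosen by name, as all probes other than controls whose gene name, or whose current symbol, is one of these. This gave 17 probes of the 41164 probes on the arrays, for 10 of the 27790 genes or transcripts.

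B16F1-GFP-M is the maternal B16F1 melanoma line, and B16F1-GFP-D grew from a single colony of GFP-positive cells sorted from pooled organs of tumour-free mice long after the melanoma challenge. The pooled organs came from control mice and from mice vaccinated with GM-CSF-secreting melanoma cells. The line is 1 clone and not a sample of many dormant cells. Both lines carry the GFP construct, and untreated cultured cells of each gave the RNA, so neither stands for cells in an animal. The RNAs were hybridised together on 2 Agilent 2-colour arrays, where array 1 had the maternal RNA in Cy5 and the B16F1-GFP-D RNA in Cy3, and array 2 had the dyes exchanged. The labels name no separate cultures, so there was 1 replicate per line, no test was made, and every standard deviation (SD) below is the spread between the 2 arrays, or between spots where that is stated.

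A D-type cyclin binds CDK4 or CDK6 early in G1, and the active kinase phosphorylates the retinoblastoma protein, which releases E2F factors for entry into S phase. The CIP/KIP inhibitors p21 (*Cdkn1a*), p27 (*Cdkn1b*) and p57 (*Cdkn1c*) bind whole cyclin-kinase complexes, mainly those with CDK2. The INK4 inhibitors, such as p16 (*Cdkn2a*) and p18 (*Cdkn2c*), bind CDK4 and CDK6 themselves and keep the D cyclins off, and in melanocytes this arm is known as a barrier to melanoma. *Cdkn2a* also encodes ARF, which stabilises p53.

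Each probe is a DNA strand of 60 bases, and its position is that given for the mm9 genome in the array files. Of the 17 probes, 10 read through without a stop codon in at least 1 forward frame. From these, 5 were picked to show the parts of *Ccnd2*, of both kinases and of the p27 gene that were read, and are printed in full, 5′ to 3′. In the *Cdk4* probe the capitals mark the codons of the DFG motif, Asp-Phe-Gly, found in the catalytic core of protein kinases.
*Ccnd2*, brightest probe, chr6:127089187-127089246, minus strand: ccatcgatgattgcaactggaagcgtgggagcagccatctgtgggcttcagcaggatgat
*Ccnd2*, probe 3, chr6:127098696-127098755, minus strand: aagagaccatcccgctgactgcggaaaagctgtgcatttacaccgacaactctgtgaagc
*Cdk4*, chr10:126501967-126502026, plus strand: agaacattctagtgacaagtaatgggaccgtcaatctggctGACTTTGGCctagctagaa
*Cdk6*, probe 2, chr5:3473220-3515504, plus strand: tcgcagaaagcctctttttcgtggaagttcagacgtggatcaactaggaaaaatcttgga
*Cdkn1b*, probe 2, chr6:134871103-134871161, plus strand: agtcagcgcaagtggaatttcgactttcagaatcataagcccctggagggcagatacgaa

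Probes of a gene are numbered from the brightest to the dimmest. The *Cdk6* sequence above spans 42285 bases of the genome, so it crosses at least 1 exon junction. For 3 members read from a single probe, the first 30 bases of that probe are shown. The *Cdkn1a* and *Cdkn1c* probes have a stop codon in every forward frame, and the *Cdkn2a* probe is open in 1. Exon and UTR annotation of mm9 was not used here.
*Cdkn1a*, chr17:29237377-29237436, plus strand, first 30 bases: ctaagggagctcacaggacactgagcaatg
*Cdkn1c*, chr7:150644753-150644812, minus strand, first 30 bases: cgtagagcagcccacggttttgtggaaatc
*Cdkn2a*, chr4:88920545-88920604, minus strand, first 30 bases: cacttctagcgatgctagcgtgtctagcat

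In a given line and array, 44.1% to 60.7% of spots stood well above background, and none was saturated. A gene counts as detected here if its brightest probe stood well above background on both arrays in at least 1 line, which held for 12539 genes. Ratios are given as log2 of the B16F1-GFP-D signal over the B16F1-GFP-M signal (D over M), so negative values are lower in B16F1-GFP-D, and the background correction draws those of dim spots towards 0. Over the detected genes the median ratio was -0.0082 and the pooled SD between the arrays was 0.15. All 7 melanocyte markers were detected, against 1 of 7 fibroblast markers (*Col1a2*), 1 of 7 leukocyte markers (*Cd3e*), 0 of 5 endothelial and 0 of 5 epithelial markers.

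The RNAs of cyclin D2 and of the inhibitors p21 and p27 were lower in B16F1-GFP-D cells than in B16F1-GFP-M cells. Those of cyclin D3, CDK4 and p18 were somewhat higher, and those of cyclin D1 and CDK6 lay near equality. The arrays do not measure protein. The p57 probe was dim, and the *Cdkn2a* probe did not stand above background in either line. Of the 10 members, 9 were detected and 8 of these were measured in both lines; p57 passed only through B16F1-GFP-D, the line with the higher normalized signal. By a rule of size, which asks for 2-fold or more on both arrays in 1 direction, *Ccnd2* was the only one of the 9 past it, beside 5.02% of all detected genes. That gene was lower, beside 1.94% of the detected genes called lower, and no member was called higher, beside 3.09%. At 1.5-fold, 3 members were called, namely *Ccnd2*, *Cdkn1a* and *Cdkn1b*, all lower, beside 15.8% of the detected genes in either direction and 7.02% lower. No member was higher at 1.5-fold, beside 8.77%. With 9 genes these counts are descriptions only. Of the 8 members measured in both lines, 3 were higher and 4 lower on both arrays, with a median ratio of -0.096. Among all genes measured in both lines, 41.3% were higher and 42.7% lower on both arrays, with a median of -0.0067.

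**Figure D1:**
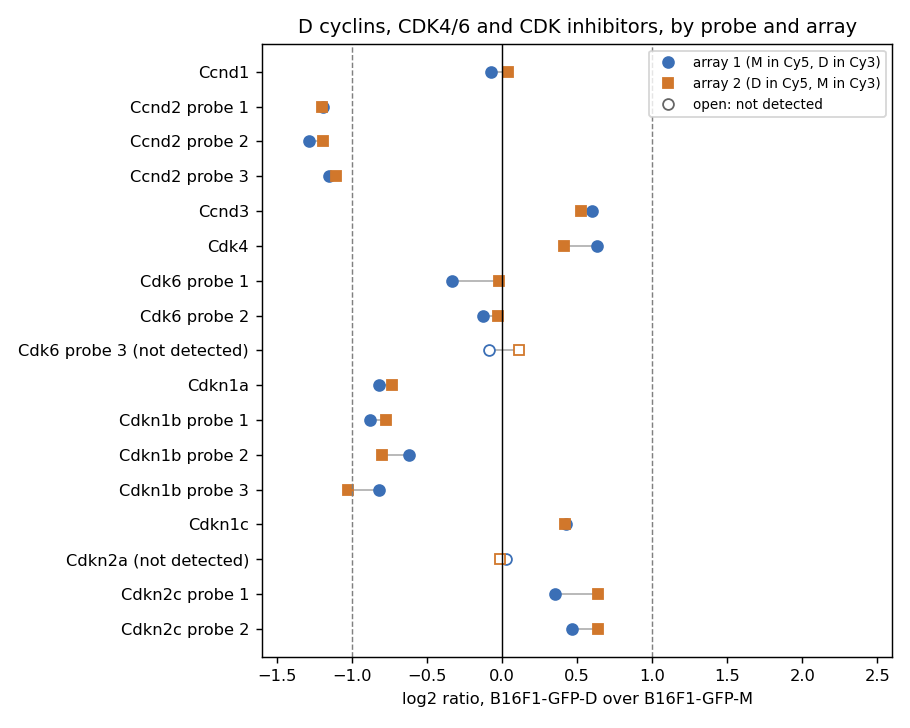
Log2 ratio, D over M, on the horizontal axis for each of the 17 probes, with 1 circle for array 1 and 1 square for array 2, open where the probe was not detected; dashed lines mark 2-fold. All 3 *Ccnd2* probes lie beyond -1 on both arrays, and the *Cdkn1a* and *Cdkn1b* probes lie between -0.62 and -1.03.

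The 3 D cyclins did not share a direction. At its brightest probe *Ccnd2*, the gene of cyclin D2, gave -1.19 on array 1 and -1.20 on array 2, a mean of -1.20 ± 0.0041 (SD between 2 arrays), or 2.29-fold lower in B16F1-GFP-D. At that probe the B16F1-GFP-M signal was 570 times the local background on array 1 and 664 times on array 2, against 293 and 377 times for B16F1-GFP-D. The maternal line was thus brighter in either dye, and the values of the lines did not overlap. These signals were not adjusted between the dyes. The lines also did not overlap at the brightest probes of *Ccnd1* and *Cdk6*, whose ratios lay near equality. A lack of overlap, here and below, therefore does not set a gene apart. In RNA of whole cultures, fewer cells that use a gene and less RNA per cell cannot be told apart.

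The other *Ccnd2* probes lie in other places of the gene and share no run longer than 7 bases with each other or with the brightest. Probe 2, at chr6:127079694-127079753, had -1.29 and -1.19. Probe 3 had -1.15 and -1.10. The means of the 3 probes ran from -1.24 to -1.13, with an SD of 0.057 between probes, so each part of the transcript that was sampled gave about the same ratio. Only 1.33% of the detected genes had a lower ratio than the brightest *Ccnd2* probe. Its 2-fold call was lost where each array was only centred on its median, with -2.26 on array 1 and 0.53 on array 2, a mean of -0.86. The loss was not particular to *Ccnd2*. In that setting 0.51% of all detected genes were called, beside 5.02% in the main setting. There, 8 of the 9 detected members had opposite signs on the 2 arrays.

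*Ccnd3*, the gene of cyclin D3, pointed the other way, with log2 ratios of 0.60 and 0.53 at its probe at chr17:47736267-47736326, a mean of 0.56 ± 0.052 (SD between 2 arrays), or 1.48-fold higher in B16F1-GFP-D. Its signal was 342 and 364 times background in B16F1-GFP-D and 209 and 207 times in B16F1-GFP-M, with no overlap. It stayed below 1.5-fold on array 2.

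*Ccnd1* encodes cyclin D1, the D cyclin that mitogen signalling induces in many cell types. Its probe, at chr7:152116173-152116232, was printed at 10 positions of each array, and the mean was -0.073 on array 1 and 0.040 on array 2. The 10 spots ran from -0.13 to 0.034 on array 1, with a median of -0.080, and from -0.014 to 0.12 on array 2, with a median of 0.044. The sign therefore followed the array, and the mean of -0.016 was smaller than the SD of 0.080 between the arrays. The signal was 40.1 and 39.5 times background in B16F1-GFP-D and 33.6 and 38.1 times in B16F1-GFP-M, so the probe was well measured.

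The kinases differed less than *Ccnd2*. *Cdk4* had 0.63 on array 1 and 0.41 on array 2, a mean of 0.52 ± 0.16 (SD between 2 arrays), or 1.44-fold higher in B16F1-GFP-D. Its signal was 114 and 117 times background in B16F1-GFP-D and 64.5 and 82.7 times in B16F1-GFP-M, so that the lines did not overlap. On array 2 the ratio was under 1.5-fold.

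*Cdk6*, which forms the same kind of complex as *Cdk4*, was read by 3 probes. The brightest, at chr5:3529287-3529346, had -0.33 on array 1 and -0.020 on array 2, and its SD of 0.22 was larger than its mean of -0.18. Probe 2 had -0.12 and -0.027, with signals of only 2.99 to 4.29 times background. Probe 3, at chr5:3521669-3521728, was well above background only in B16F1-GFP-M on array 1 and was not detected. At probes 1 and 3 the mean was smaller than the SD between the arrays, and at probe 2 the mean of -0.075 was close to its SD of 0.069.

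**Figure D2:**
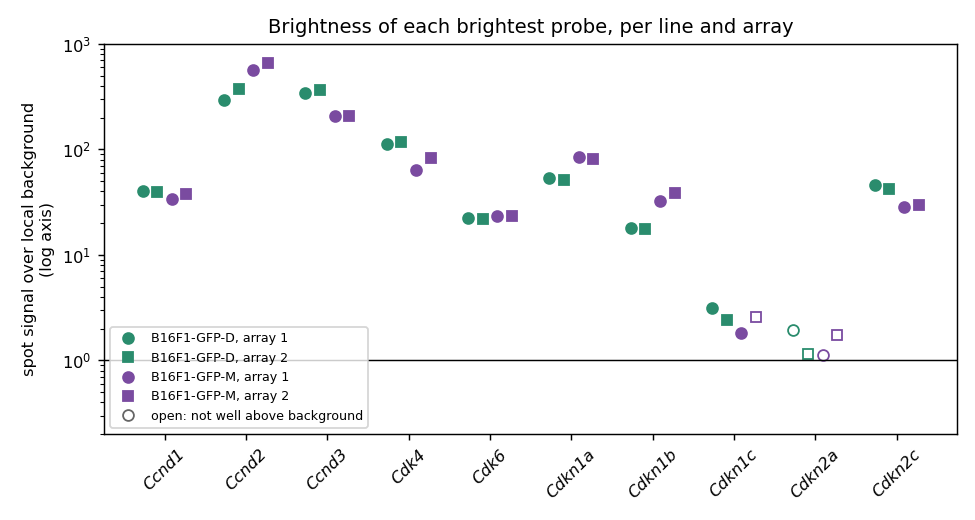
Spot signal over local background (vertical log axis) at the brightest probe of each of the 10 genes, in B16F1-GFP-D (green) and B16F1-GFP-M (purple), with circles for array 1, squares for array 2 and open symbols where the spot was not well above background. *Cdkn2a* is open in all 4 readings and *Cdkn1c* reaches at most 3.16 times background, while the 8 other genes lie at 17.6 times or more. Signals were not adjusted between the dyes, and heights of different probes cannot be compared.

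Of the CIP/KIP inhibitors, the RNAs of p21 and p27 were both lower in B16F1-GFP-D. *Cdkn1a*, the p21 gene and a well-known p53 target, had -0.82 on array 1 and -0.73 on array 2, a mean of -0.77 ± 0.063 (SD between 2 arrays), or 1.71-fold lower. Its 10 spots ran from -0.87 to -0.77 on array 1 and from -0.75 to -0.69 on array 2, with SDs between spots of 0.026 and 0.022. Every spot was below 0. The signal was 53.7 and 51.5 times background in B16F1-GFP-D and 84.1 and 81.4 times in B16F1-GFP-M.

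*Cdkn1b*, the p27 gene, had -0.88 on array 1 and -0.77 on array 2 at its brightest probe, at chr6:134875215-134875274. The mean was -0.83 ± 0.077 (SD between 2 arrays), or 1.77-fold lower in B16F1-GFP-D. The signal there was 17.9 and 17.6 times background in B16F1-GFP-D against 32.2 and 38.9 times in B16F1-GFP-M, with no overlap.

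Probe 2 of *Cdkn1b*, in the sequence shown above, was printed at 10 positions, of which 9 were used on array 1. Its spots ran from -0.71 to -0.56 on array 1 and from -0.84 to -0.77 on array 2, with means of -0.62 and -0.80. All 19 spots were below 0, and the gap between the arrays was larger than the spread of the spots within either. Probe 3, at chr6:134873606-134873665, was the dimmest and had -0.82 and -1.03. The 3 probes thus had means from -0.92 to -0.71, and each was past 1.5-fold and short of 2-fold on at least 1 array.

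**Figure D3:**
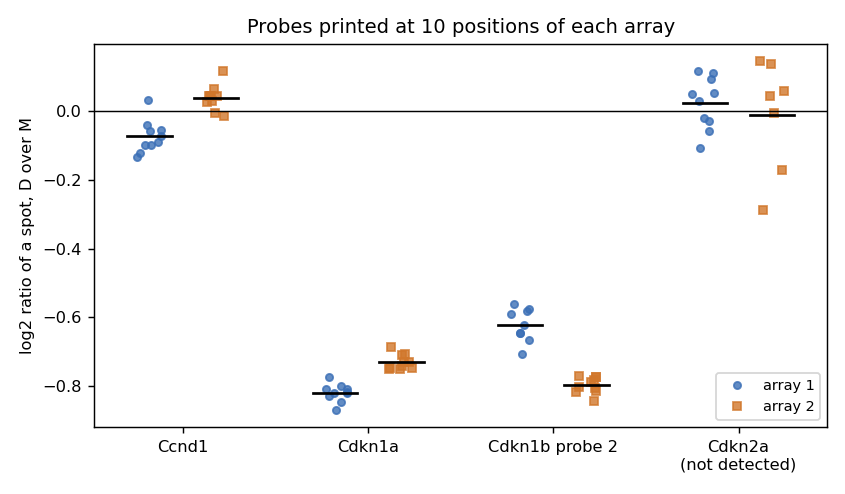
Log2 ratio of each spot (vertical axis) for the 4 probes printed at 10 positions of each array, with circles for array 1, squares for array 2 and a black line at each mean; outlier spots are left out, which leaves 7 to 10 per array. The *Cdkn1a* and *Cdkn1b* spots all lie at -0.56 or lower, the *Ccnd1* spots lie on either side of 0, and the undetected *Cdkn2a* probe scatters around 0.

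*Cdkn1c*, the p57 gene, which is imprinted, had 0.43 and 0.42, a mean of 0.42 ± 0.0085 (SD between 2 arrays). It was dim, at 3.16 and 2.43 times background in B16F1-GFP-D and 1.82 and 2.56 times in B16F1-GFP-M, and the maternal line was well above background on 1 of the 2 arrays. Its size followed the background correction: the mean was 0.94 with an offset of 0 and 1.55 with the scanner software's ratio, which puts it past 2-fold on both arrays. Since the gene was detected only through B16F1-GFP-D, where its ratio is high, these values are a description and neither a direction nor a fold is drawn from them.

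Among the INK4 inhibitors, *Cdkn2a* gave no level. On array 1 all 10 spots, and on array 2 all 7 that were used, lay inside the range of the negative control spots of the same array in both lines. In B16F1-GFP-D the spots had a median of 1.95 times background on array 1, against 1.97 for 142 negative controls. On array 2 the median was 1.15, against 1.14 for 143 controls. In B16F1-GFP-M the medians were 1.14 against 1.15 on array 1 and 1.72 against 1.91 on array 2. At this brightness neither *Cdkn2a* RNA nor a difference between the lines was detectable by this probe, which does not show that the gene was silent.

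Its neighbours on chromosome 4 were looked up after these values had been seen. *Cdkn2b*, the p15 gene, whose probe lies 31.9 kb away, was not detected in either line, with 1.21 to 2.37 times background. *Mtap*, which encodes an enzyme of methionine salvage and lies 94.3 kb on the other side, was well measured, at 22.6 and 28.5 times background in B16F1-GFP-D and 13.6 and 13.0 times in B16F1-GFP-M. Its log2 ratio was 0.70 on array 1 and 1.15 on array 2, a mean of 0.92. Within 1 Mb of the *Cdkn2a* probe, 10 of the 30 other probes were detected.

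*Cdkn2c*, the p18 gene, lies on the same chromosome and was well measured. Its brightest probe, at chr4:109333779-109333838, had 0.35 on array 1 and 0.64 on array 2, a mean of 0.50 ± 0.20 (SD between 2 arrays), or 1.41-fold higher in B16F1-GFP-D. The second probe had 0.47 and 0.64, but the 2 probes share a run of 40 bases and are not independent readings. The signal at the brightest probe was 45.9 and 42.5 times background in B16F1-GFP-D and 28.6 and 29.5 times in B16F1-GFP-M. The lines did not overlap, although array 1 alone was below 1.5-fold.

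Set in order by their mean log2 ratio, *Ccnd2* was lowest with -1.20, followed by *Cdkn1b* with -0.83 and *Cdkn1a* with -0.77. At the brightest probes *Ccnd2* was separated from both by more than the SDs between the arrays, while *Cdkn1b* and *Cdkn1a* were not separated from each other. These SDs do not hold the spread between probes. On array 2, probe 3 of *Ccnd2* had -1.10 and probe 3 of *Cdkn1b* had -1.03. Next in the order came *Cdk6* and *Ccnd1*, which overlapped within their SDs. *Cdkn2c*, *Cdk4* and *Ccnd3* lay from 0.50 to 0.56 and could not be put in order beyond the spread of *Cdkn2c* and *Cdk4*. *Cdkn1c* is left out of this order, since neither a direction nor a fold is drawn from its values. Among the brightest probes, the ratio of *Cdkn1b* was above 4.12% of the detected genes and that of *Cdkn1a* above 4.86%, while those of *Cdk4*, *Cdkn2c* and *Ccnd3* were above 86.1% to 88.2%.

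*Ccnd2* and *Cdkn1b* are both on chromosome 6, with 7.79 Mb between their brightest probes. The 25 other detected genes between them had a median log2 ratio of -0.030. Of the 25, 11 were lower and 7 higher on both arrays, beside 42.8% and 41.0% of all detected genes. The 2-fold rule took 3 of the 25, 2 of these lower, beside 5.02% of all detected genes called and 1.94% called lower. These 3 are named here after their values were seen. They were *Gabarapl1* with -1.32, *Smim10l1* with -1.49 and, in the other direction, *Fkbp4* with 1.43. *Cdkn1a* and *Ccnd3* are both on chromosome 17 and had opposite signs. The 614 other detected genes there had a median of -0.17, and that of the other chromosomes that hold members ran from -0.025 to 0.033. Any part of the chromosome in the values of *Cdkn1a* and *Ccnd3* was not tested.

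**Figure D4:**
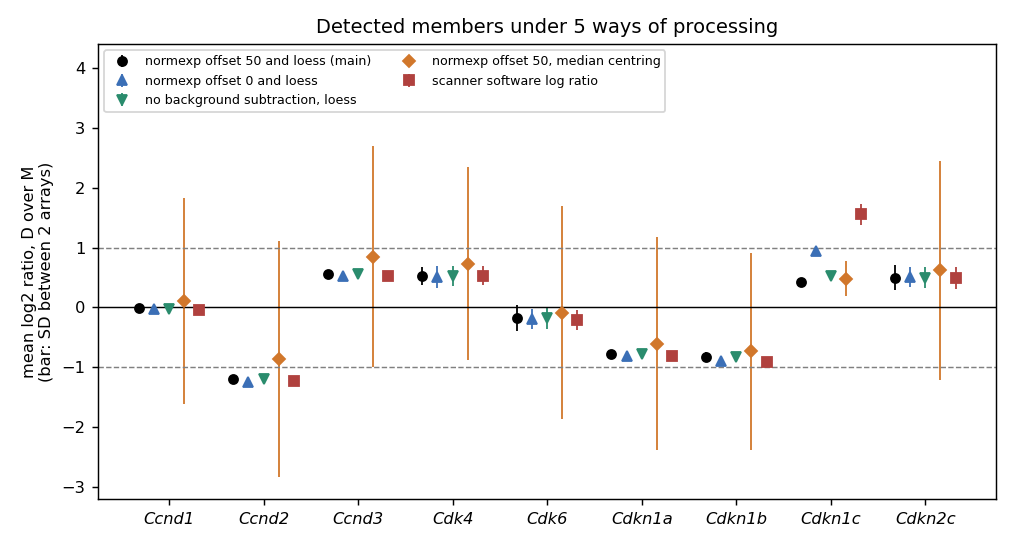
Mean log2 ratio, D over M, on the vertical axis for the 9 detected genes under 5 ways of processing, with bars for the SD between the 2 arrays and dashed lines at 2-fold. *Cdkn1c* moves from 0.42 to 1.55, while the means of the other genes keep their sign apart from *Ccnd1*, near 0. With median centring the arrays differ widely.

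Other genes of the G1 to S step were read from a list of 41, of which 37 were detected. Of these, 7 were called higher and 2 lower in B16F1-GFP-D by the 2-fold rule, or 24.3%, beside 5.02% of all detected genes. The list was written with earlier results of these data known, and its median of -0.029 was close to that of all detected genes. Of the 5 kinases and cyclins that act after the D cyclins, 3 were called higher. *Cdk1*, the mitotic kinase, had 1.65 ± 0.11 (SD between 2 arrays). *Ccne1*, the gene of cyclin E1, had 1.29 ± 0.059, and *Ccna2*, the gene of cyclin A2, had 1.19 ± 0.27, with 1.00 on array 1, at the threshold. The other 2 were not called, *Cdk2* with 0.77 ± 0.072 and *Ccne2*, the gene of cyclin E2, with 0.82 ± 0.038.

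The genes of the retinoblastoma family, on whose proteins CDK4 and CDK6 act, and those of the E2F factors were mixed. *Rb1*, the retinoblastoma gene, had -0.30 ± 0.011 (SD between 2 arrays), while *Rbl1*, the gene of the related p107, was called higher with 1.15 ± 0.098. *E2f1* and *E2f2*, activators of S phase genes, were called higher, *E2f1* with 1.17 on array 1 and 1.83 on array 2 and *E2f2* with 1.30 and 1.75. *E2f3* was the lowest of its group with -0.54, and its 3 detected probes ran from -0.54 to -0.19.

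The CDK-activating kinase, which phosphorylates CDK4 and the other CDKs, had 3 genes, all lower on both arrays, beside 42.8% of all detected genes. None was called, beside 5.02%. The 3 genes ran from -0.14 for *Mnat1* to -0.85 for *Ccnh*, whose 3 detected probes disagreed, from -0.85 to -0.097. Another INK4 inhibitor, p19INK4d (*Cdkn2d*), had 1.08 on array 1 and 0.78 on array 2 and missed the rule. Genes for turnover of p21, p27 and the D cyclins had 0 of 10 called, beside 5.02% of all detected genes. Those 10 ran from *Rnf123* with -0.43 to *Skp1*, a subunit of SCF ubiquitin ligases, with 1.00.

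Among 11 genes upstream, 9 were detected. *Tsc22d3*, which encodes the glucocorticoid-induced GILZ, was called lower with -1.17 ± 0.024 (SD between 2 arrays), although its 3 probes ran from -1.17 to -0.39. *Nupr1*, a stress-induced nuclear protein gene, was called lower with -3.56 ± 0.062. *Id3*, an inhibitor of basic helix-loop-helix factors, was called higher with 1.61 ± 0.019. *Mitf*, the melanocyte master regulator, had -0.92 ± 0.039 and was not called, and its 2 probes ran from -0.92 to -0.51. The 2 probes of *Foxo3*, whose protein is known to activate *Cdkn1b*, were not detected.

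**Figure D5:**
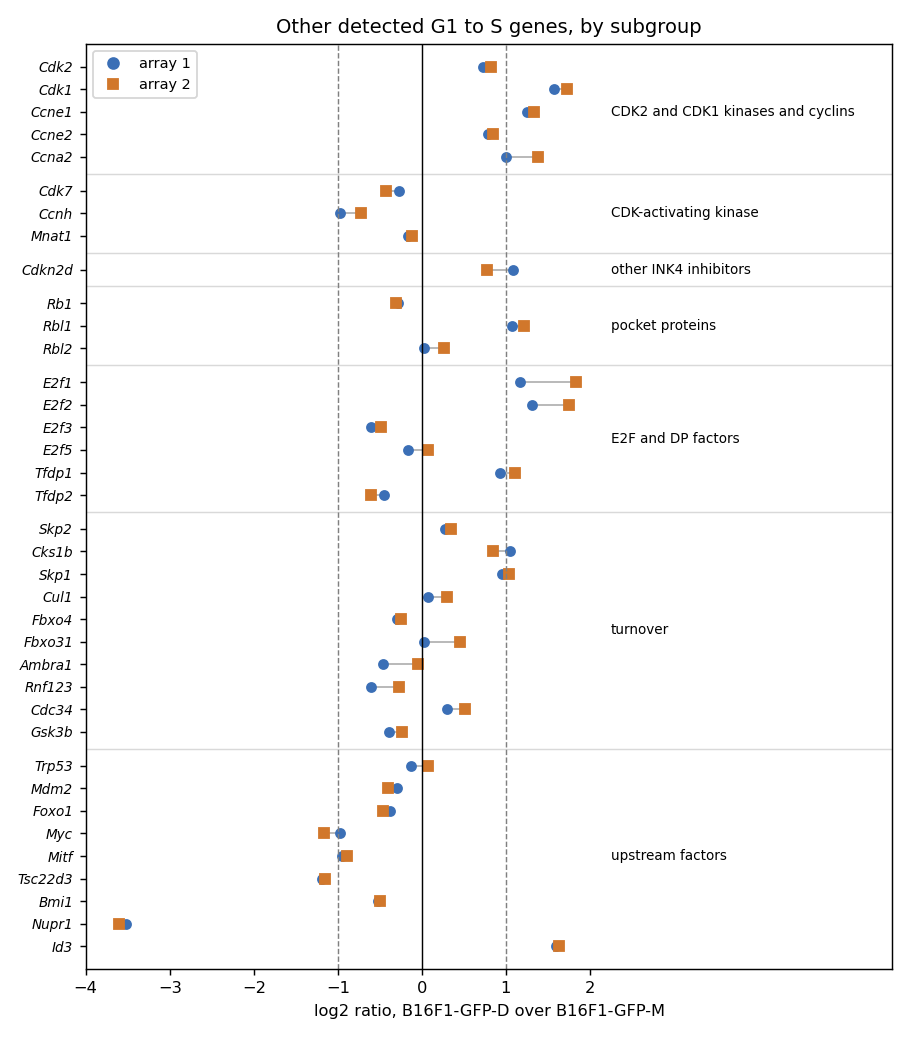
Log2 ratio, D over M, on the horizontal axis for the 37 detected genes of the G1 to S list, by subgroup, with circles for array 1, squares for array 2 and dashed lines at 2-fold. The 5 genes of the CDK2 and CDK1 group all lie at 0.72 or above on both arrays, and *Nupr1* lies at -3.52 and -3.61.

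A list of 15 genes of DNA replication and mitosis was read beside these values. All 15 were detected and higher on both arrays, from 1.24 to 2.20, beside 41.0% of all detected genes higher on both. Of the 15, 14 were called, beside 3.09% of all detected genes called higher. The exception was *Cdc20*, with 0.995 on array 1, just under the threshold of 1, and 1.48 on array 2. The genes of this list are used by cycling cells, and their part in the values of *Ccnd2*, *Cdkn1a* and *Cdkn1b* was not tested. With 1 culture per line, the state of the culture and the identity of the line cannot be told apart.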

How the data were processed

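The authors' scanner software, Agilent Feature Extraction 10.7.3.1, measured the intensity of each spot and its local background, which were deposited unnormalized. It also gave a deposited log10 ratio of Cy5 over Cy3, of which the series value table holds rounded copies. Its flags marked spots well above background and outliers, and the 143 outliers of array 1 and the 176 of array 2 were dropped. Here limma 3.58.1 in R 4.3.3 applied normexp (offset 50) to the mean signal and loess to each array, and ratios were turned to log2, D over M. Spots of a probe were averaged, and a gene was read from its brightest probe. Symbols came from RefSeq accessions through a GRCm38.p6 table used for names only, while probe sequences and mm9 positions are those of the array files. Calling required a log2 ratio of 1 or more in size on both arrays with 1 sign, and detection as defined above. This is a rule of size, not a test, and 2 arrays limit the precision. Genes named are the members and, of the G1 to S list, called genes, the highest and the lowest of each subgroup, *Tsc22d3*, *Foxo3* and *Mitf*. *Ccne2*, *Cdc20* and the neighbours of members on their chromosomes, *Cdkn2b* among them, were named after their values were seen. The procedure was also run on simulated arrays. The changes planted there were all larger than that of any member in the main setting, so the run does not bear on the members. Alternatives covered background correction, normalization, dim probes, choice of probe, each array alone and the threshold. Members and lists were chosen with earlier results of these data known. Python 3.11.15 with pandas 2.3.3, numpy 2.4.6 and matplotlib 3.10.9 made the tables and plots.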

Additional observations from a re-analysis of the deposited data

How the results depend on the processing

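The number of members called at 2-fold was 1 in the main setting and also with an offset of 0, no background subtraction, either other filter on dim probes, the median over probes, and either array alone (1 to 1). In these settings the share of all genes past the filter that was called ran from 2.27% to 8.59%, with 5.02% in the main setting. Aquantile scaling leaves every ratio as it is, so it gave the same calls by construction. The number of members called was 2 with the software's own ratios and 2 with the deposited series table, where *Cdkn1c* joined *Ccnd2*. With each of these, 10.8% of all detected genes were called. It was 0 with median centring, beside 0.51% of all detected genes. At 1.5-fold it was 3, beside 15.8%, and at 3-fold 0, beside 0.98%. The number of G1 to S genes called was 9, and it was 1 with median centring, 18 at 1.5-fold and 2 at 3-fold, from 11 to 12 with either array alone, and from 7 to 13 otherwise. These counts are to be read beside the shares of all genes called in the same settings, given above. With median centring the 2 arrays have opposite signs for 8 of the 9 detected members. The median ratio of the detected members was -0.016, with 0.11 under median centring, -0.096 for those measured in both lines and from -0.073 to 0.040 with either array alone. The mean ratio of *Ccnd2*, the member called in the main setting, kept its sign throughout. With median centring, though, *Ccnd2* had -2.26 on array 1 and 0.53 on array 2. Each array holds both lines, so every ratio is already paired within its array. With 1 replicate per line, no test was made on these ratios. Dim probes, with *Cdkn1c* and *Cdkn2a* among them, limit what can be said of p57 and p16.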
